A study of Homo sapiens with 5 samples.

Results

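The replication-dependent histone genes encode the bulk of the linker histone H1 and of the core histones H2A, H2B, H3 and H4. They were taken as the genes whose symbol is H1-1 to H1-6 or starts with H2AC, H2BC, H3C or H4C and a number, each read from an array feature annotated with exactly 1 gene symbol. Of 14232 named genes, 50 met this rule: 6 H1, 11 H2A, 13 H2B, 9 H3 and 11 H4 genes. Each had 1 such feature. The rule uses symbols, and measured levels only to pick the brightest feature of a gene.

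Expression was measured on 5 Affymetrix exon arrays of human lung cancer cell lines. A549, a lung carcinoma line with raised NEDD9 per the submitters, has lost LKB1 function by mutation, in control and knockdown cells alike. It was profiled with shNEDD9 #1 (hairpin 1), with shNEDD9 #2 (hairpin 2) and as a control, with 1 array each. CRL-5907, a line with wild-type LKB1 and low NEDD9 per the submitters, was profiled with NEDD9 overexpression and as a control, again with 1 array each. NEDD9 is a scaffold protein of focal adhesions. Whether the controls held any vector, whether arrays came from separate cultures and whether cells were clones is not given in the labels. A fit therefore measures the spread between these arrays, which may be technical.

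During S phase, the cell makes histones in step with DNA, and the genes of this family are transcribed mainly then. They lie in clusters, have no introns, and give messages that end in a conserved stem-loop instead of a poly(A) tail, bound by the protein SLBP. H3 and H4 form the centre of the nucleosome, H2A and H2B flank it as dimers, and H1 binds the linker DNA. H1-6, H2AC1 and H2BC1 are best known from testis. The RNA was depleted of ribosomal RNA and copied along whole transcripts per the labels, a procedure that does not select for poly(A). The genes of a class have near-identical coding sequences, and probes of one can read another. Values of single genes are uncertain for that reason, and counts within a class are not counts of independent genes. In bulk RNA, fewer cells in S phase and less histone message per cell cannot be told apart.

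The promoters below belong to genes on which the results turn: the H3 genes H3C1, H3C2 and H3C3 and the H2A gene H2AC4, furthest above control with NEDD9 overexpression in their classes, H2BC14, the H2B gene with the largest excess in A549, and H2BC8, the gene furthest below control with both hairpins. Each line holds the 200 bases before the annotated start in RefSeq (GRCh38.p14, 5′ to 3′ on the gene's strand). Capitals mark TATAAA (the TATA box), CCAAT (the CCAAT box), ATTTGCAT (the octamer) and AAACACA (the AC box of H1 genes), searched on both strands. None of these 4 motifs contains another. H3C1 is at chr6:26020251-26020450 (plus strand), H3C2 at chr6:26032100-26032299 (minus), H3C3 at chr6:26045184-26045383 (plus), H2AC4 at chr6:26033619-26033818 (minus), H2BC14 at chr6:27814822-27815021 (plus) and H2BC8 at chr6:26216689-26216888 (minus).
H3C1: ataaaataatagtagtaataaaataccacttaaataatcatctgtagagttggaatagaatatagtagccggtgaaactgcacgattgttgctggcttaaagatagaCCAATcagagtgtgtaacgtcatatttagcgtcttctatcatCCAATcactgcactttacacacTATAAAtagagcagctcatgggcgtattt
H3C2: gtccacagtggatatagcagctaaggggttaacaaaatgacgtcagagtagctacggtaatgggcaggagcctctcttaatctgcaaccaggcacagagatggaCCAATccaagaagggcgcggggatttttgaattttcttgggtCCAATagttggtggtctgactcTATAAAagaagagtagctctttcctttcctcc
H3C3: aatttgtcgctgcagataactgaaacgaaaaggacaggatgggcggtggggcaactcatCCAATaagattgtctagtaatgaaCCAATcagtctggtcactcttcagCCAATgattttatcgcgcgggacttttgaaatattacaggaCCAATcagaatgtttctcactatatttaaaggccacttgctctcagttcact
H2AC4: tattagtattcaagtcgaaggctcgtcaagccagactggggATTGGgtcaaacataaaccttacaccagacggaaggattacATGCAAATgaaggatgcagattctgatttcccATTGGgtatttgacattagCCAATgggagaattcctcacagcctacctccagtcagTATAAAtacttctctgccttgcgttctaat
H2BC14: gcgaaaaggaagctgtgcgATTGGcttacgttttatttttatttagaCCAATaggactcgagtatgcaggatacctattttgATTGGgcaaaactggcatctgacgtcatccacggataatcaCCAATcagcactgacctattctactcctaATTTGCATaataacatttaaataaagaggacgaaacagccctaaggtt
H2BC8: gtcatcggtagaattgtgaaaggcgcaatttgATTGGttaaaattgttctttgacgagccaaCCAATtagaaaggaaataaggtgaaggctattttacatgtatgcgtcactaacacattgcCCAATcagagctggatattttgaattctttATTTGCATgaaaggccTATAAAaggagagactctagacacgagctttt

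RefSeq promoters (250 bases before and 50 after the start) were matched for 45 of the 50 genes. The first of 2 listed starts was used for 2 of them. A CCAAT box stood in 39 of the 45 promoters (86.7%), against 34.6% of all 35116 promoters in the table. All 6 H1, 10 H2A, 13 H2B and 7 H3 promoters held it, and 3 of 9 H4 promoters did. The TATA box was found in 29 of 45 (64.4%, against 11.5% of all promoters). The octamer, the element known for H2B promoters, stood in 10 of 13 H2B and 8 of 10 H2A promoters and in no H1, H3 or H4 promoter, against 1.77% of all. In 7 H2A and H2B pairs the genes diverge from overlapping promoter windows, so that 1 octamer can be counted for both partners. The AC box was found in all 6 H1 promoters and in no other member, against 5.64% of all promoters. In the lines printed above, H3C1 has CCAAT boxes at -93 and -51 and a TATA box at -29 from the start, and H3C2 has them at -96, -54 and -32. H3C3 has CCAAT boxes at -141, -117, -93 and -52 and no TATAAA. H2BC8 has an octamer at -48 and a TATA box at -32. H2BC14 has an octamer at -48 as well. A match is a description of letters and not a shown binding site.

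**Figure D1:**
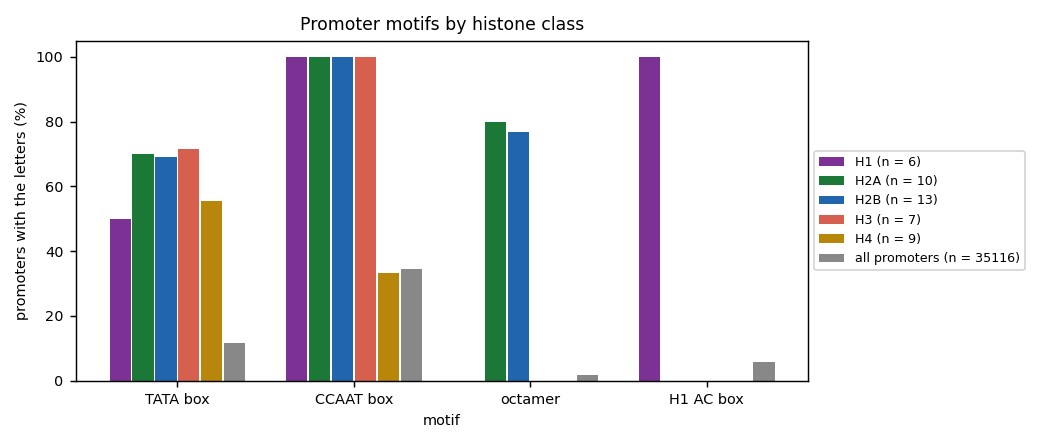
Share of RefSeq promoters (percent) that hold each motif on either strand, by histone class, with all promoters of the table in grey. The octamer stood in 80% of H2A and 76.9% of H2B promoters and the AC box in 100% of H1 promoters, and neither stood in any H3 or H4 promoter.

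NEDD9 followed the labels in direction. Its log2 level was 8.35 with hairpin 1 and 8.52 with hairpin 2, against 8.94 on the A549 control. These are differences of -0.59 (0.67-fold) and -0.41 (0.75-fold), so NEDD9 was at least 1.5-fold lower with hairpin 1 only. The NEDD9 level was 9.49 with overexpression, against 4.66 on the CRL-5907 control (4.83). Levels throughout are log2 values normalised by RMA, and differences are log2 differences between arrays. Levels of different genes come from different probes and are not compared. The median over named features was 5.69 to 5.85 on the 5 arrays, and a value below it was not shown to exceed background. Of the 50 histone genes, 16 lay above the median on all arrays and 20 below it on all. Epithelial markers were present, with EPCAM, CDH1 and keratins between 6.03 and 11.76 on all arrays. The leukocyte marker PTPRC was listed at 1.72 on every array, and fibroblast and endothelial markers lay at or below 5.88. Among 4 measured leukocyte markers, CD68 lay at 8.77 to 9.59 on all arrays. LYZ (lysozyme) was 1.99 and 1.78 higher with the hairpins, and its part in the results was not tested. Hairpin arrays differed from each other with an SD of 0.246 among the dimmest and 0.149 among the brightest named genes, and with 0.335 over the histone genes.

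In CRL-5907 cells overexpressing NEDD9, 12 of the 50 histone genes were at least 1.5-fold higher than on the control array and 0 were at least 1.5-fold lower. Over all named genes 2.9% were that much higher and 1.35% that much lower. Above control by any amount were 33 histone genes and below it 17, against 48.1% and 42.3% of all named genes. The median difference was 0.19 over the histone genes and 0.00 over all named genes. Histone H3 genes had the highest median, 0.41, with 4 of 9 genes past 1.5-fold. The medians were 0.31 for H1 (2 of 6), 0.26 for H4 (2 of 11), 0.12 for H2A (1 of 11) and 0.10 for H2B (3 of 13). The H2A median turned to -0.10 over genes above the array median and to -0.01 above the 75th percentile. The H3 median was 0.85 and 1.59 there, the latter over H3C2, H3C3 and H3C11 only. These filters keep a gene if its brighter array of the comparison passes. H3C1 and H3C10 passed the median filter through the overexpression array alone, and H3C3 passed the 75th percentile filter that way. The higher H3 medians are therefore partly built in. Each condition is 1 array, and no test of these differences was made.

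The H3 genes H3C1, H3C2 and H3C3, which all encode the replicative H3.1 protein, lay furthest from control in their class. H3C3 had a level of 8.25 with overexpression, against 6.51 on the control, a difference of 1.74 or 3.34-fold. H3C2 was at 9.82 with overexpression, against 8.23 on the control (1.59 or 3.01-fold). Both lay above the array median in either condition. H3C1 was at 5.78 with overexpression and 4.25 on the control (1.53 or 2.89-fold), and the control value lay below the median. H3C10 followed at 6.16 with overexpression, against 5.30 (0.85). The other H3 genes were closer to their control, from H3C11 at 0.41 to H3C6 at -0.20.

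Among H2A and H2B genes a few stood far from control and most did not. H2AC4 was at 4.41 with overexpression, against 2.62 on the control (1.79). Its levels, like those of H2BC3 (2.38 with overexpression and 1.15 on the control, a difference of 1.23), lay below the median on both arrays, so the sizes of both differences are uncertain. H2BC5, a gene known to give polyadenylated messages as well, was at 7.06 with overexpression, against 5.97 on the control (1.09 or 2.13-fold). H2BC14 was at 7.47, against 6.84 (0.62). The other polyadenylating genes measured, H1-2 (0.18), H2BC21 (0.10) and H2AC6 (-0.10), stayed within 0.2 of the control; H2BC12 shares its feature with another gene. The lowest values in these classes were -0.48 for H2BC26 and -0.26 for H2AC25.

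Linker histone H1-1 was at 7.78 with overexpression, against 6.90 on the control, a difference of 0.88 or 1.84-fold. H1-3 was at 5.20 with overexpression, against 4.59 (0.60), with both values below the median. H1-5 differed by 0.45 and H1-2 by 0.18, while H1-4 (-0.06), at levels of 11.15 with overexpression and 11.21 on the control, and the testis gene H1-6 (-0.18) were slightly below control. Among H4 genes, H4C2 was at 5.96 with overexpression, against 5.23 on the control (0.73), and H4C13 at 6.23, against 5.59 (0.64). H4C4 was furthest the other way, at 4.18 with overexpression, against 4.57 on the control (-0.39).

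**Figure D2:**
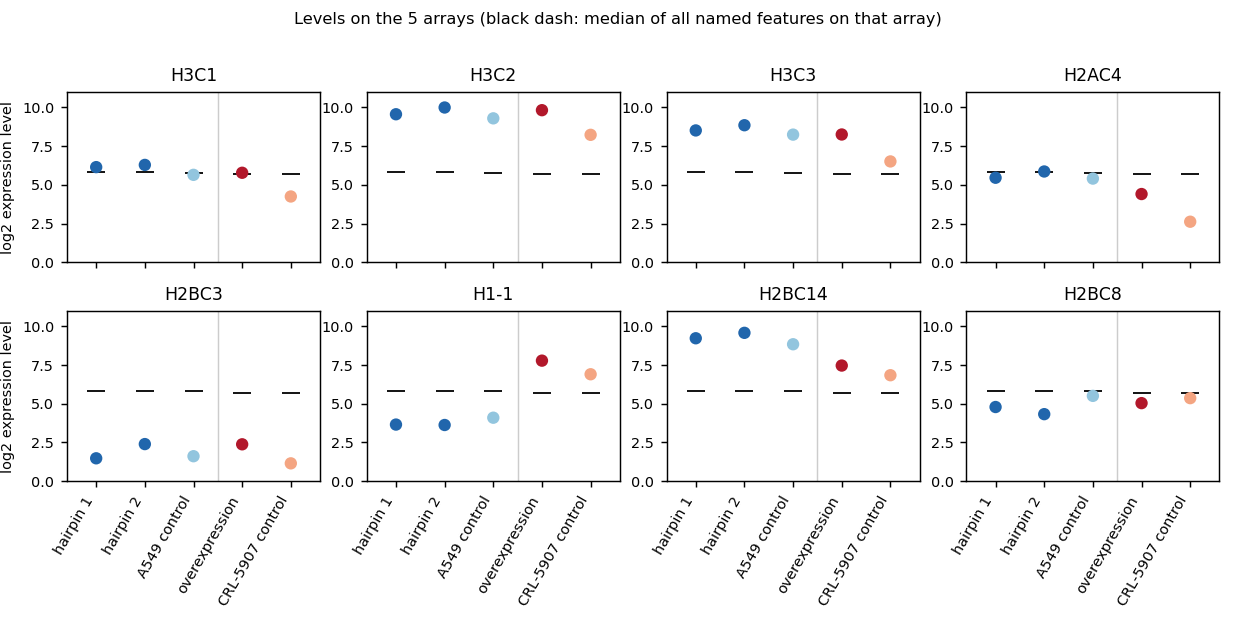
Log2 expression level (vertical axis) of 8 histone genes on the 5 arrays (horizontal axis), with 1 point per array and a black dash at the median of all named features. H3C1, H3C2, H3C3, H2AC4 and H2BC3 lie higher with NEDD9 overexpression than on the CRL-5907 control, and H1-1 lies below the median on all A549 arrays and above it on both CRL-5907 arrays.

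Most of the genes furthest from control with overexpression were neighbours, with H2BC5 (1.09) outside their stretch. Of the 50 genes, 45 lie on chromosome 6, 4 on chromosome 1 and 1 on chromosome 12. On chromosome 6 the 9 measured members from H1-1 to H1-2 follow each other in the order H1-1, H3C1, H4C1, H4C2, H3C2, H2AC4, H2BC3, H3C3 and H1-2. Of these 9 genes 7 were at least 1.5-fold higher with overexpression, and their median difference was 1.23. Of the other 41 members 5 were, with a median of 0.12. H4C1, inside the stretch, was at -0.07. This stretch was chosen after the values were seen, so the numbers are a description. The nearest measured protein-coding genes outside the family were TRIM38 on one side (0.18) and HFE on the other (-0.22). Further out, SLC17A2 was at 0.00, SLC17A3 at 1.06, SLC17A4 at -0.17, BTN3A2 at 0.31 and BTN2A2 at -0.18. In A549 the same 9 genes had medians of 0.09 with hairpin 1 and 0.61 with hairpin 2, against 0.14 and 0.22 for the other 41.

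**Figure D3:**
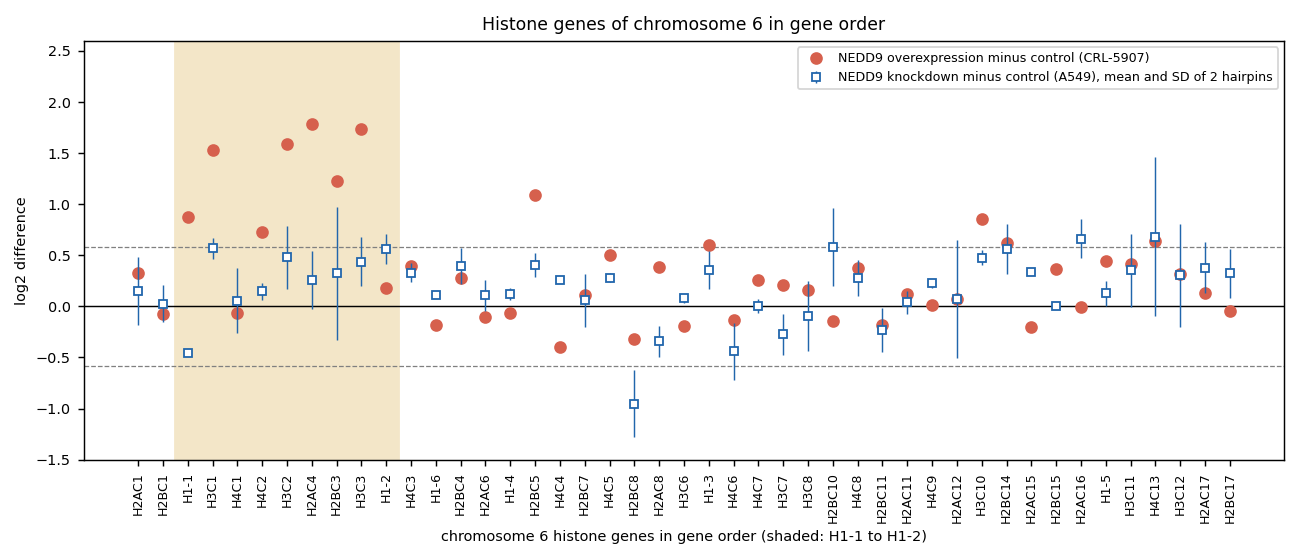
Log2 difference (vertical axis) of the 45 chromosome 6 histone genes in gene order (horizontal axis): red circles give NEDD9 overexpression minus control in CRL-5907 (1 array each), and open blue squares give the mean of the 2 hairpins minus the A549 control with the SD of the hairpins. Dashed lines mark 1.5-fold. In the shaded stretch from H1-1 to H1-2, 7 of 9 red circles lie above 1.5-fold.

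With NEDD9 knockdown in A549 no histone gene was at least 1.5-fold higher with both hairpins, where 0.794% of all named genes were, and 1, H2BC8, was at least 1.5-fold lower with both, against 0.302%. Smaller differences pointed mostly upward: 29 of the 50 genes lay above control with both hairpins and 7 below with both, against 39.6% and 27.7% of all named genes. Both hairpins are set against the same control array. The median difference was 0.12 with hairpin 1 and 0.27 with hairpin 2, against 0.02 and 0.00 over all named genes. Hairpin 2 put 10 of the 50 genes at least 1.5-fold above control (1.57% of all named genes) and hairpin 1 put 1 there (2.59%). At least 1.5-fold lower were 1 gene with hairpin 2 (0.913% of all named genes) and 2 with hairpin 1 (1.27%). NEDD9 itself differed by -0.59 with hairpin 1 and by -0.41 with hairpin 2, so the hairpin with the larger histone differences had the smaller NEDD9 difference. The difference between the hairpins was not tested.

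limma called 0 of 50 histone genes and 0 of 14232 named genes at an adjusted p under 0.05 (Benjamini-Hochberg over all named genes, 1 residual degree of freedom). At an unadjusted p under 0.05 it gave 6 histone genes, 5 higher and 1 lower, which is 12% of the family against 15.6% of all named genes. With the arrays centred on their medians it gave 11 (22%), 9 higher and 2 lower, against 1858 of 14232 named genes. The 6 were H1-1, H2AC15, H4C4, H3C10, H4C5 and H3C1. The fit assumes that the single control varies as the hairpin arrays do.

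H3 genes again had the highest class median with hairpin 2, 0.61 (0.11 with hairpin 1), and 5 of the 9 passed 1.5-fold with that hairpin. H3C1 was at 6.15 and 6.29 with the hairpins, against 5.65 on the control (0.57 ± 0.10, SD, n = 2). H3C10 was at 7.02 and 7.13, against 6.60 on the control (0.48 ± 0.07). Both hairpin values of each gene lay above the control, by more than the hairpins differed. H3C2 was at 9.56 and 9.996, against 9.30 on the control, and H3C3 at 8.52 and 8.85, against 8.24. In these 2 genes the excess with hairpin 2 (0.70 and 0.61) exceeded that with hairpin 1 (0.26 and 0.27). H3C7 was the lowest of the class, at 5.43 and 5.71 with the hairpins, against 5.85 on the control (-0.27 ± 0.20).

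Class medians with hairpin 1 and hairpin 2 were 0.20 and 0.31 for H2A, 0.15 and 0.25 for H2B, 0.14 and 0.25 for H4 and 0.08 and 0.19 for H1. H2AC16 was at 7.22 and 7.48 with the hairpins, against 6.69 on the control (0.66 ± 0.19). H2AC21 was at 10.01 and 10.21, against 9.63 (0.48 ± 0.14), and H2BC14 at 9.23 and 9.58, against 8.84 (0.56 ± 0.25). In all 3 genes both hairpins lay above the control. H2AC8 was lowest in its class (-0.34 ± 0.15), at levels of at most 3.41 in A549. H2BC10 had the highest mean among H2B genes (0.58 ± 0.38), from levels of 2.73 and 2.20 with the hairpins, against 1.88 on the control, all far below the median.

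H2BC8 stood apart in the other direction. Its level was 4.79 with hairpin 1 and 4.33 with hairpin 2, against 5.51 on the control (-0.95 ± 0.33, SD, n = 2), all 3 below the array median. limma gave it an adjusted p of 0.436 (Benjamini-Hochberg). With overexpression it was at 5.04, against 5.36 on the control, a difference of -0.32.

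The H4 genes differed in how well the hairpins matched. H4C13 had the highest mean in its class (0.68 ± 0.78), but this rests on hairpin 2: its level was 6.41 with hairpin 1 and 7.51 with hairpin 2, against 6.28 on the control. H4C5 was at 8.62 and 8.56 with the hairpins, against 8.31 on the control (0.28 ± 0.04), and H4C3 at 8.66 and 8.79, against 8.40 (0.33 ± 0.09). H4C6 was lowest, at 4.69 and 5.09, against 5.33 (-0.44 ± 0.28).

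Of the linker histones, H1-2 was at 6.38 and 6.59 with the hairpins, against 5.92 on the control (0.56 ± 0.14). H1-1 was at 3.66 and 3.63 with the hairpins, against 4.10 on the control (-0.46 ± 0.02). It had the lowest unadjusted p of the family in limma (adjusted p = 0.276, Benjamini-Hochberg). All its A549 values lay below the median. H1-3 (0.36 ± 0.19), H1-4 (0.12 ± 0.06), H1-5 (0.13 ± 0.12) and H1-6 (0.11 ± 0.03) were above control with both hairpins by smaller amounts.

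**Figure D4:**
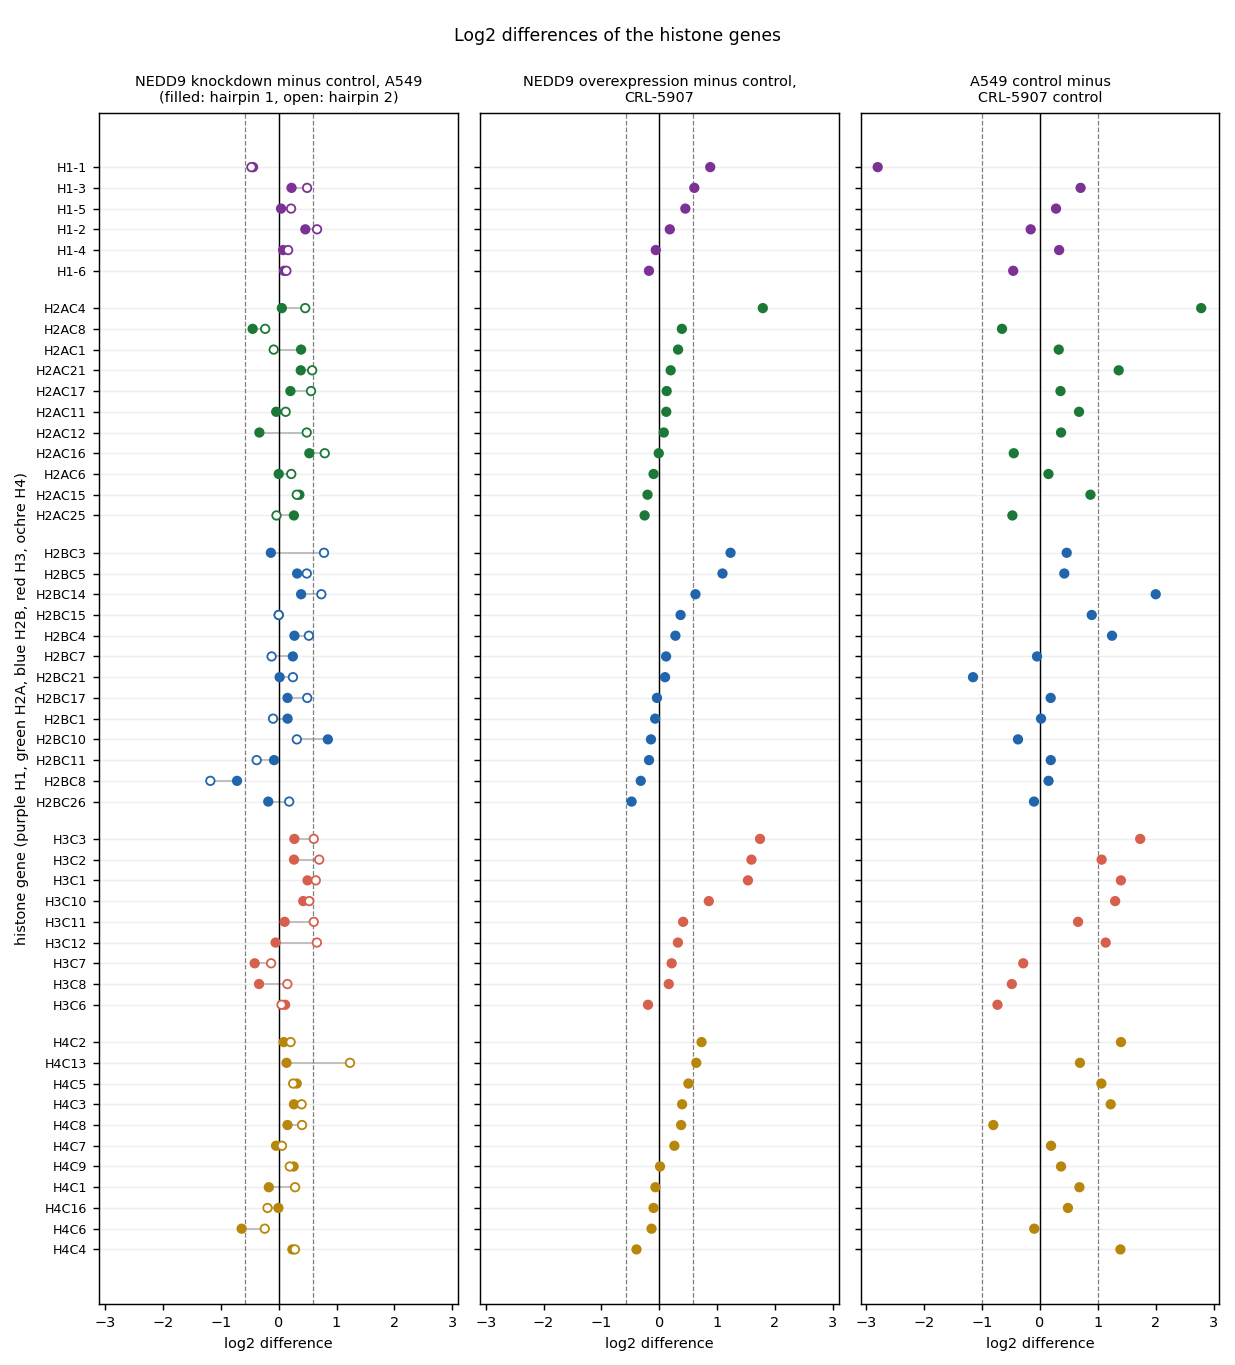
Log2 differences (horizontal axes) of the 50 histone genes, by class: knockdown minus control in A549 (filled, hairpin 1, and open, hairpin 2), overexpression minus control in CRL-5907, and A549 control minus CRL-5907 control. Dashed lines mark 1.5-fold in the left and middle panels and 2-fold in the right one. H2BC8 lies left of the lower line with both hairpins, 12 genes lie right of the upper line with overexpression, and 13 do so between the controls.

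Knockdown and overexpression share no array. Above control with both hairpins and also with overexpression were 21 of the 50 genes, against 24.2% of all named genes. Below control with both hairpins and above with overexpression were 3 genes, H1-1, H2AC8 and H3C7, against 10.1% of all named genes. The reverse pattern was seen in 8 genes, against 13.8%. No histone gene was at least 1.5-fold higher in both manipulations, where 0.112% of all named genes were. H3C1 came nearest, at 0.50 and 0.64 with the hairpins and 1.53 with overexpression.

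Between the control arrays of the lines, 13 of 50 histone genes were at least 2-fold higher in the A549 control than in the CRL-5907 control, against 6.44% of all named genes, and 2 were at least 2-fold lower, against 3.53%. The median difference was 0.36, against 0.01 over all named genes. H3 had a median of 1.06 (5 of 9 genes at least 2-fold higher) and H4 of 0.68 (4 of 11), followed by H2A at 0.35 (2 of 11), H2B at 0.18 (2 of 13) and H1 at 0.06 (0 of 6). The H1 median turned to -0.05 with centred arrays and to -0.16 over genes above the array median, and the H2B median to -0.05 above the 75th percentile. The H2A median was 0.15 above the array median. Each control is 1 array, and no test was made. The same CRL-5907 control array is subtracted here and for overexpression, so a low value on it raises both differences. These comparisons are therefore not independent of each other. The A549 control array is likewise the one subtracted for the hairpins. As a description over all 5 arrays, the 3 A549 values lay above both CRL-5907 values in 23 histone genes and below both in 8, against 30.1% and 20.5% of all named genes.

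H2BC14 was at 8.84 in the A549 control, against 6.84 in the CRL-5907 control, a difference of 2.00. H3C3 was at 8.24 in A549, against 6.51 in CRL-5907 (1.73), and H3C2 at 9.30, against 8.23 (1.06). With NEDD9 overexpression, the CRL-5907 level of H3C3 was 8.25 and that of H3C2 was 9.82. The other genes of this paragraph stayed below the A549 control there: H2BC14 at 7.47, H2AC4 at 4.41, H4C2 at 5.96 and H2AC21 at 8.47. H2AC4 was at 5.41 in A549, against 2.62 in CRL-5907 (2.79), with both values below the median. H4C2 was at 6.63 in A549, against 5.23 in CRL-5907 (1.40). H2AC21 was at 9.63 in A549, against 8.27 in CRL-5907 (1.36).

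Some histone genes ran the other way between the lines. In 8 of the 50 (16%) all A549 arrays lay below both CRL-5907 arrays, a smaller share than the 20.5% of all named genes. H1-1 was at 4.10 in the A549 control, against 6.90 in the CRL-5907 control (-2.81), and the A549 value lay below the median. H2BC21 was at 6.86 in A549, against 8.02 in CRL-5907 (-1.16). H4C8 was at 8.46 in A549, against 9.27 in CRL-5907 (-0.81), and H3C6 at 5.51, against 6.24 (-0.74). In each of these 4 genes all A549 arrays lay below both CRL-5907 arrays.

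Genes that make and handle histone messages and proteins were set beside the family. Of 17 listed genes of histone transcription and 3′ processing 13 were measured, and none passed 1.5-fold with both hairpins or with overexpression. Their medians were 0.16 and 0.07 with the hairpins and 0.08 with overexpression. SLBP, the stem-loop binding protein, was at 7.09 with overexpression, against 6.65 on the control (0.44), and differed by 0.16 and 0.07 with the hairpins. ERI1, an exonuclease that trims histone messages, differed by 0.51 and NFYB, a subunit of the CCAAT-binding factor, by 0.43 with overexpression, both at levels below the median. CPSF3, the nuclease that cuts histone messages, differed by 0.30 and 0.29 with the hairpins, CSTF2 by 0.35 and 0.17, and ZNF473 by 0.26 and 0.08.

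Histone chaperones were measured for 13 of 14 listed genes. Their median was 0.23 with hairpin 1, 0.30 with hairpin 2 and 0.31 on overexpression. With both hairpins 1 gene passed 1.5-fold upward, ASF1B, which carries H3 and H4 to the replication fork (6.34 and 6.51 with the hairpins, against 5.75 on the control). With hairpin 1 it only just reached the threshold, at 1.5001-fold. With overexpression 3 passed: NAP1L1 (1.12), a chaperone of H2A and H2B, RBBP4 (0.90), and HAT1 (0.66), which acetylates new H4. NAP1L1 and RBBP4 lay below the median on both CRL-5907 arrays, so the sizes of their differences are uncertain. HAT1 differed by 0.48 and 0.53 with the hairpins. NPM1 differed by 0.52 and 0.70 with the hairpins, at levels of at most 2.64.

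S phase genes, 17 of 20 measured, had a median of 0.31 with hairpin 1, 0.32 with hairpin 2 and 0.34 on overexpression. CDC6, which loads the replicative helicase, passed 1.5-fold in both manipulations (0.70 and 0.67 with the hairpins, 0.82 with overexpression), at levels of 3.55 to 4.51. CCNA2, cyclin A2, differed by 0.44 and 0.81 and RRM2, a ribonucleotide reductase subunit, by 0.42 and 0.71 with the hairpins. TYMS, thymidylate synthase, differed by 1.02 and CCNE1, cyclin E1, by 0.75 with overexpression, while CCNE1 was at -0.18 and -0.19 with the hairpins. Of all 17, 4 were at least 1.5-fold higher with overexpression and none lower. The part of these genes in the histone differences was not tested.

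Variant histones that are made also outside S phase were measured for 8 of 12 listed genes. They had a median of 0.08 with hairpin 1, 0.18 with hairpin 2 and 0.10 on overexpression. CENPA, the H3 variant of the centromere, was at 7.54 and 7.75 with the hairpins, against 7.16 on the A549 control, and at 6.41 with overexpression, against 5.76 on the CRL-5907 control (0.65). It was the 1 variant at least 1.5-fold higher with overexpression. H2AZ1 differed by 0.43 and 0.37 and H2AX by 0.25 and 0.32 with the hairpins, and by -0.10 and 0.10 with overexpression. MACROH2A1 differed by 0.27 and the linker variant H1-10 by -0.26 with overexpression.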

How the data were processed

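The authors deposited log2 expression values for 22011 features on 5 arrays. Per the submitters' processing notes, which name no versions, RMA in Affymetrix Power Tools gave these values. RMA corrects background, quantile-normalizes arrays together and summarises probes, and can give exactly equal values to several arrays (2 members had equal values on at least 2 A549 arrays). The genome build is not given in the sources used here. GEO's platform annotation named 14432 features with 1 symbol and 2408 with several, and 5171 were unnamed here. A gene took its brightest feature over the 5 arrays, which left 14232 genes. All 50 members matched RefSeq by Entrez number. Members and gene lists were chosen with earlier results of these data known.

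Groups follow the titles. For hairpin 2 the description says NEDD10 where the title says NEDD9. No level filter was used, so every member is counted. For knockdown, the 3 A549 arrays entered limma (version 3.58.1, R 4.3.3), with a variance trend in eBayes and Benjamini-Hochberg adjustment over all genes at 0.05. Thresholds were 1.5-fold, and 2-fold between lines. Single arrays received no test. The steps were tested on simulated data with the same spread for every gene. In these arrays the spread varies between genes, so that run does not show how the fit performs here. Array number limits the precision. Named genes were fixed by rule: NEDD9, all H1 genes, the highest, lowest and brightest of each other class, genes that give polyadenylated messages, and the 3 furthest of each pathway list by each manipulation. Named outside it, after their values were seen, were H2AC15, H3C10, H3C11, H4C3, H4C5, the H2A and H2B pairs of the closing section and the genes around the H1-1 to H1-2 stretch. Alternatives were array centring, a further quantile normalization, removal of the trend with level (lowess), the mean of a gene's features, level filters at the median and 75th percentile, eBayes without trend, a fit over 5 arrays, and leaving out each hairpin.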

Additional observations from a re-analysis of the deposited data

Results flagged for a closer look

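Features annotated with several histone symbols were outside the 50 genes, and there were 5 of them. The feature shared by H3C4 and H2AC7 was at 5.99 with NEDD9 overexpression, against 5.27 on the CRL-5907 control, a difference of 0.72 that is past 1.5-fold in data no comparison above used. It was at 3.74 and 3.49 with the hairpins, against 3.36 on the A549 control. It cannot be told which of the genes the signal came from, and there is no replicate.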

How the results depend on the processing

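Averaging a gene's features could not change a member's values, because each member had 1 feature. Array centring, a further quantile normalization and taking out the trend with level were the other normalization settings. They left the counts of members past a fold or on one side of control within 1.5 times their main values. With 1 exception, they left every median over all members within 0.101 (the SD of the 2 hairpin medians). The exception was the median between the controls, 0.25 after centring. Its main value was 0.36. limma called 0 members in every fit run. The number of members at an unadjusted limma p under 0.05 changed with centring and with the 75th percentile filter, which leaves fewer members to count. Class medians turned sign for H2A with overexpression and for H1 and H2B between the controls, as given beside them, and the H1 median between the controls was just below 0 after quantile normalization. Quantile normalization also brought the H2B median with overexpression to 0.01 and the hairpin 1 median of the transcription and 3′ processing list to 0.035.

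Level filters reduce the members themselves, and keep a gene whose brightest array of the comparison passes. Members can therefore enter through the array where they are high, as H2AC4 and H3C12 did through hairpin 2. The filtered counts and medians are thus not independent of the differences. Above the array median 27 members remained for knockdown, 25 for overexpression and 26 between controls. Above the 75th percentile 14, 15 and 14 remained. Counts across both manipulations use the knockdown filter. The shares of all named genes past these fold and direction rules were not computed under the filters. Above the array median the counts were 0 at least 1.5-fold lower and 1 below control with both hairpins. With overexpression 18 lay above control, and 1 lay below with both hairpins and above with overexpression. The medians were 0.24 and 0.49 with the hairpins, 0.38 with overexpression and 0.54 between controls. Above the 75th percentile, 0 members were at least 1.5-fold lower and 0 below control with both hairpins, 12 above with both hairpins, 6 at least 1.5-fold higher with hairpin 2, 5 at least 1.5-fold higher and 12 above control with overexpression, 6 at least 2-fold higher and 1 lower in A549, 9 above control in both manipulations and 0 in opposite directions. The medians were 0.26 and 0.49 with the hairpins, 0.39 with overexpression and 0.76 between controls. In the H1-1 to H1-2 stretch 7 genes passed under centring, quantile normalization and removal of the trend, and 5 and 3 under the filters.

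Leaving out 1 hairpin gave 1 to 10 of the 50 members at least 1.5-fold higher, against 1.57% to 2.59% of all named genes. It gave 1 to 2 lower, against 0.913% to 1.27%. It also gave 33 to 38 above control, 11 to 15 below control and 23 to 27 above control in both manipulations. Below with knockdown and above with overexpression were 5 to 9. The shares of all named genes for these direction counts were not computed with 1 hairpin left out. One hairpin against 1 control has no residual degrees of freedom and no test. No paired analysis was possible because each control is a single array.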

Other observations

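H2A and H2B genes that diverge from a common promoter window could be compared in 7 pairs. H2AC17 and H2BC17 were close to each other with each hairpin, at 0.20 and 0.15 with hairpin 1 and at 0.56 and 0.49 with hairpin 2. H2AC8 and H2BC8 were both below control with both hairpins (-0.45 and -0.72 with hairpin 1, -0.23 and -1.18 with hairpin 2), but lay on opposite sides of it with overexpression (0.39 and -0.32). H2AC15 was above control with both hairpins (0.36 and 0.31), while its partner H2BC15 had exactly equal values on all 3 A549 arrays, which RMA can produce. H2BC4 was at 1.24 in the A549 control over the CRL-5907 control and its partner H2AC6 at 0.15. These are values of single genes, with no test.

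The feature shared by H2AC14 and H2AC13 was at 1.20 with hairpin 1 and 3.50 with hairpin 2, against 2.42 on the A549 control. All 3 values are far below the array median. The feature shared by H2BC12 and H2BC12L was at 9.87 with overexpression, against 9.47 on the CRL-5907 control (0.40).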
